A study of Mus musculus with 4 samples.

Results

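The genes described are the ephrins, Eph receptors, semaphorins, plexins, neuropilins, netrins, netrin receptors and netrin-Gs of mouse, taken by gene symbol from single-cell RNA-seq of the embryonic cerebellum. Of 64 genes whose symbols matched these families, 61 had at least 20 UMIs (unique molecular identifiers, each counting 1 captured RNA molecule) over the cells that passed quality limits and were kept as members, out of 15622 genes with that many UMIs. The members just inside the limit were Plxnb3, with 25 UMIs, and Sema3e, with 36. Epha1 with 9 UMIs, Sema3g with 7 and Ntn5 with 1 fell outside it.

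Cells positive for the red fluorescent protein tdTomato were sorted from cerebella of E15.5 embryos, and 4 libraries were made, 2 from controls and 2 from En1/2 CKO mutants. Control embryos were Ptf1aCre/+ with 1 R26LSL-tdT allele, and mutants carried in addition floxed alleles of En1 and En2 (En1lox/lox; En2lox/lox), the genes of the Engrailed homeodomain transcription factors. Both genotypes therefore carried the Cre allele of Ptf1a, and by design the marker and the deletion depend on Cre made where Ptf1a is or was expressed, a history that in the cerebellum belongs to Purkinje cells and inhibitory interneurons. Each library came from embryos pooled before dissociation, and the labels do not say whether the replicates of a genotype were litters or days, so the p-values below measure the spread between pools.

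These families carry short-range and long-range cues that steer growing axons and migrating neurons. Ephrins are membrane-bound ligands of Eph receptor tyrosine kinases, and both partners signal into the cell that bears them. Class 3 semaphorins are secreted and act through neuropilins paired with plexins, most other semaphorins are membrane-bound and bind plexins directly, and netrins attract through Dcc or repel through Unc5 receptors. Netrin-Gs are lipid-anchored relatives of the netrins that act at synapses. In the midbrain tectum Engrailed is known to act on ephrin-A genes.

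The sequences shown are the 250 bases upstream of the transcription start of Epha5, which holds a match to a homeodomain core motif, and of both starts listed for Sema6d, the only member whose genotype effect differed past the threshold between cell classes. They are from RefSeq on build GRCm38.p6, printed 5′ to 3′ along the gene's strand, with a match to TAATTA in capitals. TAATTA is the core bound by Engrailed-type homeodomains and reads the same on both strands. The Epha5 window lies at chr5:84417383-84417632 on the minus strand, and the Sema6d windows lie at chr2:124089719-124089968 and chr2:124653331-124653580 on the plus strand. The genes themselves span chr5:84054761-84417382 and chr2:124089969-124667770 in GENCODE vM21.
Epha5: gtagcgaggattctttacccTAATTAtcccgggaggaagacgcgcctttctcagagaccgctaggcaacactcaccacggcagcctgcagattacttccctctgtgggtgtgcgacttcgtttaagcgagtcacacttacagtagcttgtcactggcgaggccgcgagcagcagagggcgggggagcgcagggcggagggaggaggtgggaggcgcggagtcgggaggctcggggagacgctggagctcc
Sema6d, upstream start: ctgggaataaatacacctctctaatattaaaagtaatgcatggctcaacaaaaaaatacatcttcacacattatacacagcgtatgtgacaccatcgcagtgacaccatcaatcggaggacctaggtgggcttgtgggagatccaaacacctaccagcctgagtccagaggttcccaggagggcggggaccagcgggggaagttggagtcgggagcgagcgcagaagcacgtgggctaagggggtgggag
Sema6d, downstream start: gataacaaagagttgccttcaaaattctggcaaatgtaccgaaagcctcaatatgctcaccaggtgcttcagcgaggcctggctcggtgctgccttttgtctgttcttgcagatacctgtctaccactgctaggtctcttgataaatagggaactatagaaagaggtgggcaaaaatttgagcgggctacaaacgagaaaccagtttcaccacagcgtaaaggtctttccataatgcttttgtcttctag
RefSeq windows were matched for 52 members, 66 windows in all. TAATTA was present in 2 of these windows, those of Efna1 and Epha5, which is 3.03%, against 4.84% of all 32851 windows of the same length.

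The libraries differed in depth and quality. Total UMIs ranged from 5305154 in control 2 to 21021428 in En1/2 CKO 2. Between 25.5% (control 2) and 94.6% (control 1) of barcodes passed the limits on detected genes (500 or more) and on mitochondrial UMIs (10% or less), and after likely doublets were removed 1134 to 9487 cells per library were kept. Any 2 libraries shared 10 to 32 cell barcodes, at most 0.346% of the smaller library. En2 was 102.7 and 49.2 CPM (a gene's UMIs per 1000000 UMIs of the same library) in all cells of the 2 controls and 30.4 and 15.3 in the mutants, while En1 was 109.6 and 78.5 against 69.7 and 63.0, so En1 RNA was still counted in the libraries labelled En1/2 CKO. In Ptf1a intermediate progenitor-like cells the controls had 74.8 and 65.1 CPM of En1 against 79.7 and 67.9 in the mutants, which overlap, while En2 there was 87.9 and 53.8 against 20.97 and 14.9 CPM. A 3′ tag outside the deleted part of a gene would be counted in both genotypes, and whether that holds for En1 was not settled, so the loss of En1 rests on the labels.

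Cells were clustered without any of the guidance genes, and 10 classes held at least 20 cells in every library. They were Purkinje-like, interneuron-like, Ptf1a intermediate progenitor-like, radial progenitor-like, cycling, granule lineage-like and microglia-like cells, and 3 clusters that stayed unnamed, led by Gdf10 (11 of 14 radial progenitor markers raised), by Bcan and Olig1, and by haemoglobin genes. The 2 Purkinje-like clusters had 8 and 11 of 13 Purkinje markers raised, and the 3 interneuron-like clusters had 5 or 6 of 8. Granule lineage-like and microglia-like cells lie outside the Ptf1a lineage, and TdTom in microglia-like cells was 453, 1169, 543.6 and 842.9 CPM, no lower than the 426.8, 848.6, 390.7 and 493.8 CPM of Purkinje-like cells. Here and below, 4 values are those of control 1, control 2, En1/2 CKO 1 and En1/2 CKO 2, in CPM of the UMIs of a class summed per library. Only 25 cells of control 2 were Purkinje-like, with 71886 UMIs, so that 1 UMI stood for about 13.9 CPM there and a gene with no UMI could lie as high as 41.7 CPM.

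**Figure D1:**
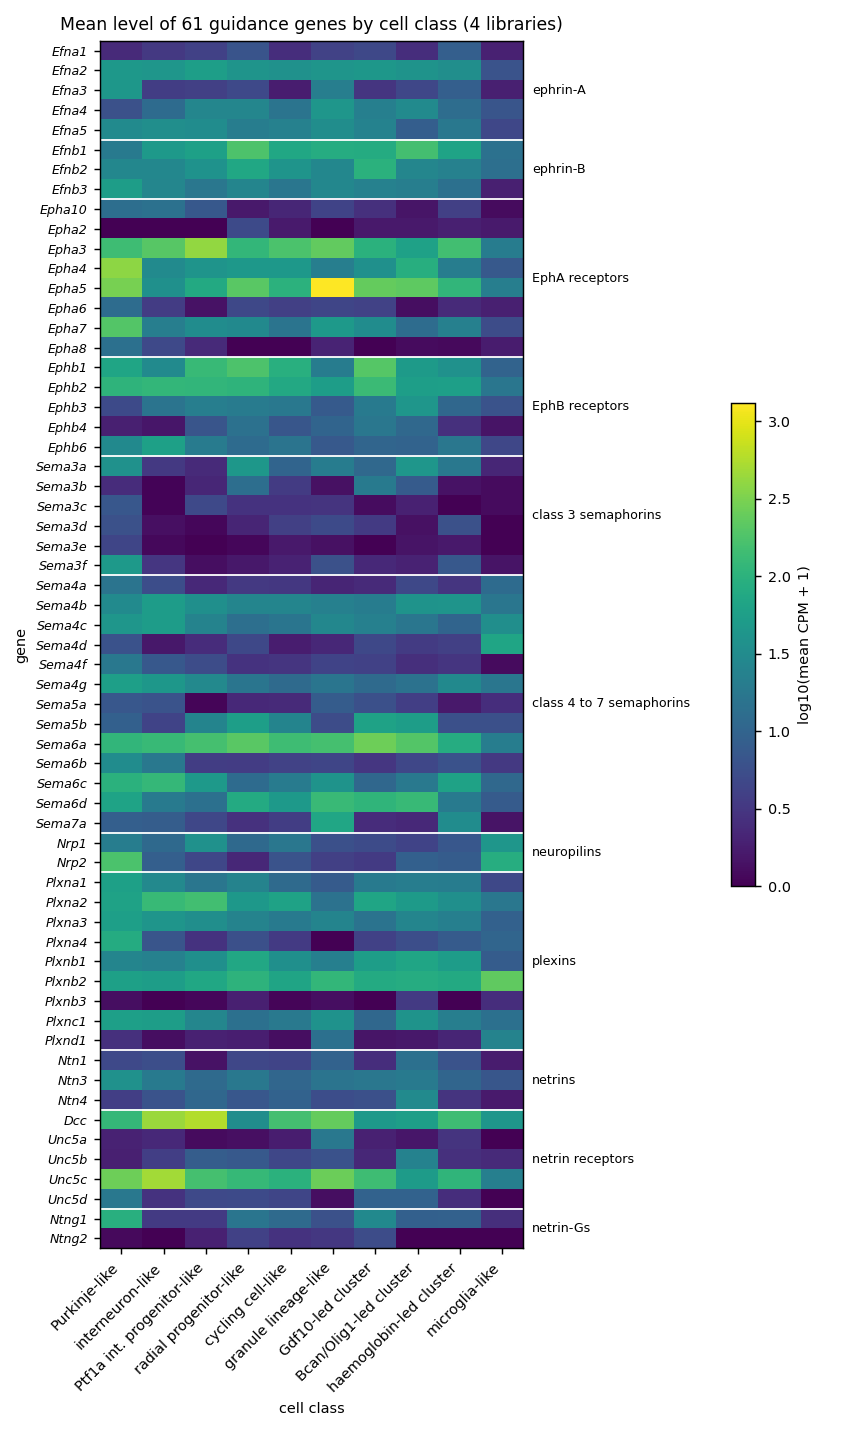
Mean level of the 61 guidance genes (rows, grouped by family) in 10 cell classes (columns), as log10 of the mean CPM of the 4 libraries plus 1. Epha5 in granule lineage-like cells, with a mean of 1306 CPM, is the brightest cell, and Plxna4 and Sema3f are clearly above their other classes in Purkinje-like cells, with means of 82.0 and 47.7 CPM.

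More members had their highest mean in Purkinje-like cells than in any other class. Of the 43 members that reached a mean of 20 CPM in a class, 14 had their highest mean there, which is 32.6%, against 18.7% of all genes at that level. The share of members was also above that of all genes in interneuron-like (13.95%, against 8.81%) and granule lineage-like cells (9.30%, against 5.19%). The same held for the Gdf10-led cluster (11.6%, against 8.09%) and Ptf1a intermediate progenitor-like cells (9.30%, against 7.62%). In the remaining classes it was below. For 15 of the 43, which is 34.9%, all 4 libraries of 1 class lay above all libraries of every other class, against a background of 14.9% of all genes. The 15 were Epha4, Epha7, Nrp2, Plxna4 and Sema3f in Purkinje-like cells, Unc5c in interneuron-like cells, Dcc and Epha3 in Ptf1a intermediate progenitor-like cells, Epha5 in granule lineage-like cells, Sema6a and Efnb2 in the Gdf10-led cluster, Ephb3, Ntn4 and Unc5b in the Bcan and Olig1-led cluster, and Sema4d in microglia-like cells. Between Purkinje-like and interneuron-like cells, 35 members could be compared. Of these, 10 were higher in every Purkinje-like library (28.6%, against 10.2% of all genes), 5 were higher in every interneuron-like library (14.3%, against 7.3%), and 20 overlapped. These counts describe the levels, and classes were not compared by a test.

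Among the ephrin-A ligands, Efna3 was higher in every Purkinje-like than in every interneuron-like library. It was 42.6, 69.6, 29.8 and 33.0 CPM there and 6.85, 0, 1.82 and 2.07 CPM in interneuron-like cells, a 16.3-fold ratio of the means. Granule lineage-like cells, with a mean of 20.7 CPM, came next and overlapped the Purkinje-like range. The control 2 value in Purkinje-like cells rested on 5 UMIs. Efna4 had its highest mean in granule lineage-like cells (65.6, 41.2, 37.2 and 27.6 CPM), while its mean in Purkinje-like cells was 4.93 CPM. Efna2 was spread evenly, with class means between 34.0 CPM in the haemoglobin-led cluster and 54.1 CPM in Ptf1a intermediate progenitor-like cells, except for 5.22 CPM in microglia-like cells. Efna5 had means of 29.6, 33.4 and 31.7 CPM in Purkinje-like, interneuron-like and Ptf1a intermediate progenitor-like cells and 7.63 CPM in the Bcan and Olig1-led cluster. Efna1 reached no class mean of 20 CPM.

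Of the ephrin-B ligands, which span the membrane and signal through their own tails, Efnb1 and Efnb2 had their highest means in radial progenitor-like cells and the Gdf10-led cluster, and Efnb3 in Purkinje-like cells. Efnb1 was 245.4, 159.7, 155.7 and 146.6 CPM in radial progenitor-like cells. It was 20.2, 13.9, 16.7 and 19.0 CPM in Purkinje-like cells and 64.7, 39.6, 43.7 and 42.1 CPM in interneuron-like cells, so every interneuron-like library lay above every Purkinje-like library. Efnb2 was 96.8, 94.3, 88.3 and 108.1 CPM in the Gdf10-led cluster, just above the highest radial progenitor-like library at 87.5 CPM. Efnb3 had its highest mean in Purkinje-like cells (65.8, 13.9, 63.1 and 68.6 CPM), but with control 2 at 1 UMI its range there overlapped the 17.8 to 35.4 CPM of interneuron-like cells.

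Of the 6 class 3 semaphorins, secreted ligands of the neuropilin and plexin complex, Sema3a and Sema3f reached a mean of 20 CPM in any of the 10 classes. Sema3f was 36.6, 69.6, 44.1 and 40.6 CPM in Purkinje-like cells, and its mean in the rest of the 10 classes was at most 6.31 CPM. Choroid plexus-like cells, found only in mutant libraries and not among these classes, had higher levels of Sema3b, Sema3c and Sema3f, given under other observations. Sema3a was 48.6, 69.6, 15.48 and 11.4 CPM in Purkinje-like cells against 2.13, 1.98, 3.65 and 1.38 CPM in interneuron-like cells. Unlike Sema3f, Sema3a did not have its highest mean in Purkinje-like cells. The mean was 44.0 CPM in radial progenitor-like cells and 42.4 CPM in the Bcan and Olig1-led cluster. Among the 10 classes Sema3b peaked at a mean of 17.9 CPM in the Gdf10-led cluster, and Sema3c, Sema3d and Sema3e stayed at means under 6 CPM in Purkinje-like cells.

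The class 4 to 7 semaphorins, which are membrane-bound, were spread over more classes, and 10 of 13 reached 20 CPM. Sema6a, a transmembrane ligand of A-type plexins, was 268.5, 282.8, 259.7 and 260.3 CPM in the Gdf10-led cluster, above the 192.6 to 226.4 CPM of radial progenitor-like cells. Sema6d, of the same class, had means of 126.9 CPM in granule lineage-like cells and 124.6 CPM in the Bcan and Olig1-led cluster. Sema6d was 51.6, 41.7, 91.7 and 71.1 CPM in Purkinje-like cells and 18.9, 33.7, 10.0 and 9.33 CPM in interneuron-like cells. Sema7a, a lipid-anchored semaphorin, was 86.0, 57.7, 72.1 and 61.6 CPM in granule lineage-like cells, and its highest mean elsewhere was 31.6 CPM in the haemoglobin-led cluster. Sema4d, known from immune cells, was 70.4, 116.4, 45.9 and 38.8 CPM in microglia-like cells and had a mean of 5.17 CPM in Purkinje-like cells, the next class. Sema4b was the only semaphorin higher in every interneuron-like library (52.7, 51.5, 47.1 and 55.3 CPM) than in every Purkinje-like library (36.6, 27.8, 25.0 and 29.2 CPM). Sema6c had its highest mean in interneuron-like cells (176.7, 69.3, 112.4 and 118.8 CPM) and overlapped Purkinje-like cells. Sema5b was 65.1, 51.7, 44.8 and 59.0 CPM in radial progenitor-like cells, where interneuron-like cells had a mean of 3.26 CPM.

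Of the 3 netrin ligands, Ntn1 and Ntn4 were low in the neuronal classes and Ntn3 was not. Ntn4 was 38.1, 42.8, 18.3 and 19.2 CPM in the Bcan and Olig1-led cluster. It was 3.74, 0, 4.77 and 2.54 CPM in Purkinje-like, 7.80, 1.98, 6.08 and 5.18 CPM in interneuron-like and 7.72, 10.6, 9.56 and 5.80 CPM in progenitor-like cells, the last being the radial and Ptf1a intermediate progenitor-like cells together. Ntn1, the classical floor-plate attractant, had its highest mean, 12.96 CPM, in the same Bcan and Olig1-led cluster. Ntn1 was 1.495, 13.9, 0 and 0 CPM in Purkinje-like, 4.73, 3.96, 4.56 and 5.18 CPM in interneuron-like and 2.72, 0, 2.00 and 0.829 CPM in progenitor-like cells. Ntn3 was 43.4, 41.7, 22.6 and 39.4 CPM in Purkinje-like cells, which overlapped its 29.1, 3.96, 17.0 and 21.1 CPM in interneuron-like cells. Ntn3 was 23.2, 3.53, 9.56 and 14.4 CPM in the progenitor-like class.

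Of the 4 EphA receptors compared, which bind ephrin-A ligands, 3 were higher in every Purkinje-like than in every interneuron-like library and 1 overlapped. Epha4, which also binds ephrin-B ligands, was 245.2, 793.0, 219.2 and 290.7 CPM in Purkinje-like cells and 28.8, 21.8, 31.3 and 38.0 CPM in interneuron-like cells. The ratio of the means was 12.9, and within single libraries it ran from 7.01 to 36.4. Epha7 was 146.5, 236.5, 228.7 and 159.9 CPM in Purkinje-like cells against 16.5, 23.8, 20.96 and 21.1 CPM in interneuron-like cells, with a ratio of 7.59 to 10.9 within libraries. Both genes were apart from every other class as well, the next mean being 88.0 CPM for Epha4 in the Bcan and Olig1-led cluster and 46.5 CPM for Epha7 in granule lineage-like cells. Microglia-like cells, which should lack neuronal RNA and had median depths of 1542 to 4396 UMIs per cell against 1149 to 2866 in Purkinje-like cells, had means of 6.37 CPM for Epha4 and 4.31 CPM for Epha7.

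Epha5 was 2413, 810.2, 900.0 and 1100 CPM in granule lineage-like cells, the lowest of which was above every library of any other class. In Purkinje-like cells Epha5 was 251.9, 417.4, 216.8 and 297.0 CPM, against 47.5, 17.8, 34.0 and 43.5 CPM in interneuron-like cells. Epha5 was among the 10 leading genes of the granule lineage-like cluster although it was withheld from the clustering. Epha3 went the other way. It was 378.5, 404.9, 385.4 and 480.4 CPM in Ptf1a intermediate progenitor-like cells and had means of 202.9 CPM in interneuron-like and 141.4 CPM in Purkinje-like cells, which overlapped. The other 4 EphA receptors, Epha2, Epha6, Epha8 and Epha10, reached no class mean of 20 CPM.

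EphB receptors, which bind ephrin-B ligands, were less divided between the neuronal classes, and none of the 3 compared was apart between Purkinje-like and interneuron-like cells. Ephb1 was 241.1, 194.4, 161.8 and 188.7 CPM in the Gdf10-led cluster and 195.3, 126.8, 188.8 and 184.9 CPM in radial progenitor-like cells, and these ranges overlapped. Ephb2 had its highest mean, 131.2 CPM, in the Gdf10-led cluster, and means of 104.6 and 115.2 CPM in Purkinje-like and interneuron-like cells. Ephb3 was 46.9, 64.2, 27.5 and 32.2 CPM in the Bcan and Olig1-led cluster. Ephb6, which lacks kinase activity, had its highest mean in interneuron-like cells (49.6, 21.8, 67.1 and 91.2 CPM).

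**Figure D2:**
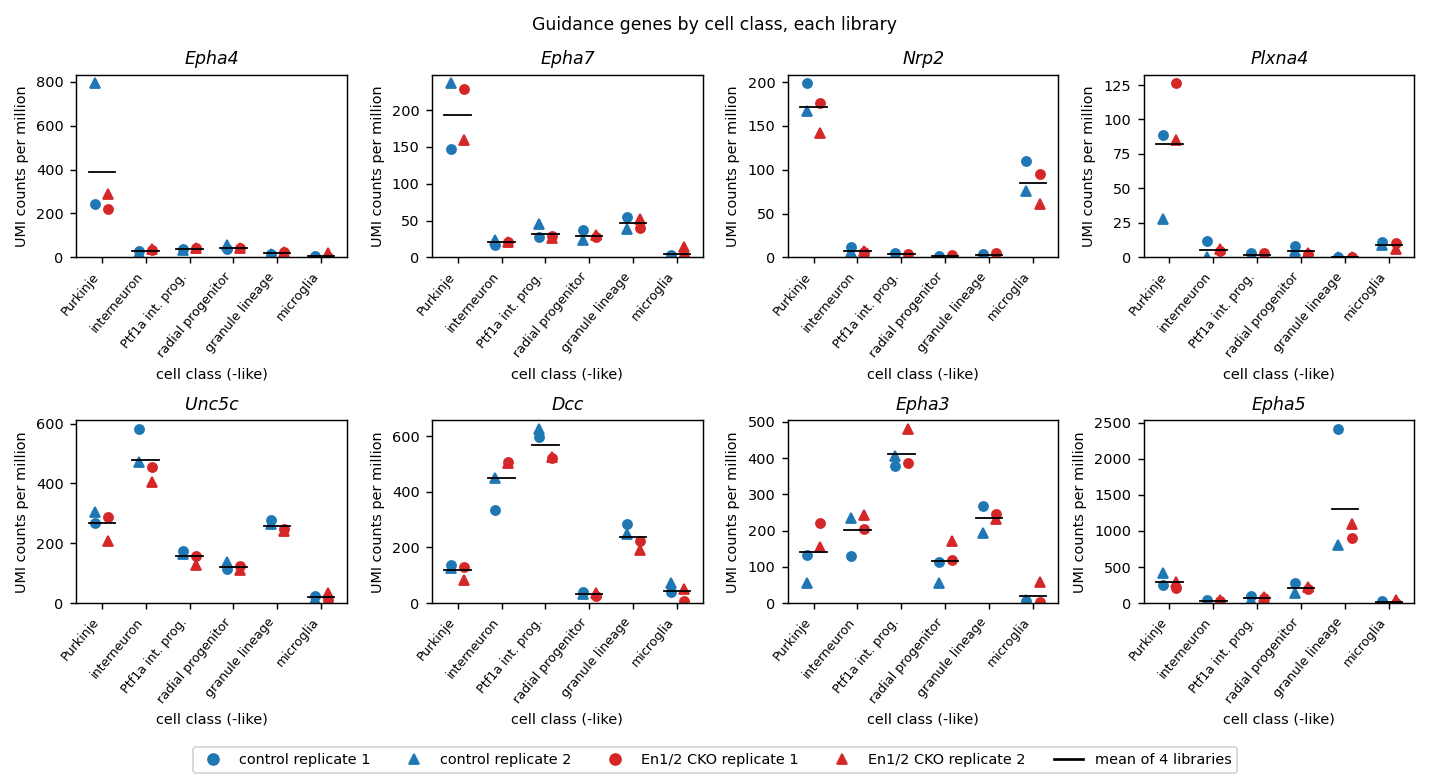
Level in CPM (linear axis from 0) of 8 guidance genes in 6 cell classes, with a point for each of the 4 libraries, coloured by genotype, and a line at their mean. Epha4, Epha7, Nrp2 and Plxna4 are high in Purkinje-like cells, Nrp2 also in microglia-like cells, Unc5c in interneuron-like, Dcc and Epha3 in Ptf1a intermediate progenitor-like, and Epha5 in granule lineage-like cells.

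Neuropilins are the ligand-binding subunits of the class 3 semaphorin receptor, and Nrp2 prefers Sema3f. Nrp2 was 198.8, 166.9, 176.3 and 142.2 CPM in Purkinje-like cells, 11.3, 5.94, 6.38 and 7.60 CPM in interneuron-like cells and 4.09, 1.77, 3.34 and 1.93 CPM in progenitor-like cells. The ratio of Purkinje-like to interneuron-like means was 21.9, and it ran from 17.5 to 28.1 within libraries. Nrp2 was also counted in microglia-like cells at 109.7, 76.1, 95.3 and 60.5 CPM, which was below every Purkinje-like library but above every library of the interneuron-like, granule lineage-like and progenitor classes. Nrp1 had a different distribution, with 44.9, 22.7, 35.8 and 42.8 CPM in Ptf1a intermediate progenitor-like cells and a mean of 42.1 CPM in microglia-like cells. Nrp1 was 17.9, 27.8, 11.9 and 22.9 CPM in Purkinje-like cells, 9.69, 13.9, 7.59 and 10.7 CPM in interneuron-like cells and 36.8, 17.7, 25.3 and 27.6 CPM in progenitor-like cells as a whole.

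Among the plexins, the signalling subunits for semaphorins, Plxna4 marked Purkinje-like cells. Plxna4 was 89.0, 27.8, 126.3 and 85.1 CPM there, the control 2 value resting on 2 UMIs, and had no UMI in granule lineage-like cells of any library. Its highest mean in another class was 9.28 CPM, in microglia-like cells. Plxna2 lay the other way: it was 127.3, 114.9, 136.1 and 117.8 CPM in interneuron-like cells against 63.5, 0, 97.7 and 81.2 CPM in Purkinje-like cells, and had its highest mean, 147.6 CPM, in Ptf1a intermediate progenitor-like cells. Plxnb2 was 182.9, 250.8, 271.8 and 200.3 CPM in microglia-like cells, overlapping the 60.4 to 201.1 CPM of granule lineage-like cells, and Plxnd1 had a mean of 23.6 CPM in microglia-like cells. Plxnb1 was highest in radial progenitor-like cells, at a mean of 72.2 CPM, close to the 66.9 CPM of the Bcan and Olig1-led cluster. Plxna1, Plxna3 and Plxnc1 had means of 56.2 to 58.1 CPM in Purkinje-like cells and overlapped between the Purkinje-like and interneuron-like classes.

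Of the 5 netrin receptors, the 2 that could be compared, Dcc and Unc5c, were higher in every interneuron-like than in every Purkinje-like library. The 3 EphA receptors that were apart between these classes went the other way. Dcc, the attractive receptor, was 335.7, 449.6, 507.9 and 505.0 CPM in interneuron-like cells, 137.5, 125.2, 128.6 and 83.8 CPM in Purkinje-like cells and 445.3, 402.7, 313.9 and 315.8 CPM in progenitor-like cells. Its Ptf1a intermediate progenitor-like libraries, at 597.3, 625.7, 520.7 and 523.7 CPM, all lay above the interneuron-like ones, while radial progenitor-like cells had a mean of only 32.9 CPM. Unc5c, a repulsive receptor, was 582.3, 473.3, 455.0 and 404.1 CPM in interneuron-like cells, 268.3, 306.1, 289.4 and 208.2 CPM in Purkinje-like cells and 159.3, 153.7, 143.6 and 121.0 CPM in progenitor-like cells. The interneuron-like mean was 3.78-fold the Purkinje-like mean for Dcc and 1.79-fold for Unc5c. In microglia-like cells the means were 42.6 CPM for Dcc and 21.1 CPM for Unc5c.

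The other netrin receptors were low. Unc5d was 20.2, 0, 25.0 and 21.6 CPM in Purkinje-like, 1.18, 0, 3.95 and 2.42 CPM in interneuron-like and 2.72, 0, 6.89 and 6.08 CPM in progenitor-like cells, with no UMI in any of these classes of control 2. Unc5b was 20.5, 29.97, 12.8 and 30.3 CPM in the Bcan and Olig1-led cluster, where Ntn4 was also highest. Unc5b had means of 0.858 CPM in Purkinje-like cells, 2.75 CPM in interneuron-like cells and 7.12 CPM in progenitor-like cells. Unc5a had its highest mean in granule lineage-like cells, at 16.5 CPM, and means of 0.969, 1.31 and 0.307 CPM in those 3 classes.

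Ntng1, the netrin-G1 synaptic adhesion protein, was 127.1, 13.9, 78.6 and 151.1 CPM in Purkinje-like cells, 3.31, 1.98, 1.52 and 2.76 CPM in interneuron-like cells and 5.45, 3.53, 8.45 and 11.9 CPM in progenitor-like cells. The ratio of the Purkinje-like to the interneuron-like mean was 38.7, with control 2 resting on 1 UMI in each class. Its next highest mean was 29.2 CPM in the Gdf10-led cluster, and since the control 2 value lay below that, Ntng1 was not apart from every class. Ntng2 had means of 0.187 and 1.69 CPM in Purkinje-like and progenitor-like cells and no UMI in interneuron-like cells of any library.

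Within the Purkinje-like class the members were divided again. Cluster 9, led by Nrgn, Islr2 and Foxp2, and cluster 13, led by Snhg11 and neurofilament genes, each had at least 20 cells in 3 libraries (all but control 2). Of 39 members at 20 CPM or more, 16 were apart between these clusters (41.0%, against 21.6% of all genes), 8 in each direction. Epha4 was 52.1, 88.1 and 57.4 CPM in cluster 9 and 505.6, 550.4 and 459.9 CPM in cluster 13, and Epha5 was 87.2, 114.7 and 154.0 CPM against 474.0, 474.7 and 400.8 CPM. Nrp1 was 6.51, 0 and 3.02 CPM in cluster 9 and 33.4, 42.0 and 37.2 CPM in cluster 13. In the other direction Dcc, Epha3, Plxna2 and Plxna4 were higher in cluster 9, Epha3 at 179.6, 272.6 and 277.8 CPM against 68.5, 92.4 and 67.9 CPM. Nrp2 and Sema3f overlapped between the clusters, and Nrp2 was among the 10 leading genes of cluster 9. Cluster 13 made up 72.0% of the 25 Purkinje-like cells of control 2 and 30.6% to 47.2% of those of the other libraries, and control 2 also had the highest Epha4 level of the class. The part of the makeup of the class in that level was not tested.

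The intermediate progenitor clusters also differed. Cluster 8, with Ptf1a and Kirrel2 among its leading genes, and cluster 3, led by Neurog1, had 10 of 28 members apart (35.7%, against 13.8% of all genes), 8 of them higher in cluster 3. Dcc was 311.4, 348.0, 337.4 and 306.5 CPM in cluster 8 and 824.3, 882.1, 741.1 and 686.7 CPM in cluster 3. Epha3 was 217.0, 277.2, 308.0 and 367.1 CPM in cluster 8 and 506.7, 522.7, 478.4 and 565.4 CPM in cluster 3. Sema6c was 25.4, 5.90, 25.2 and 14.6 CPM in cluster 8 and 107.4, 43.6, 72.2 and 69.1 CPM in cluster 3. Plxna2 and Efnb1 went the other way, Plxna2 at 212.8, 235.9, 180.9 and 142.6 CPM in cluster 8 and 113.0, 125.2, 90.6 and 94.4 CPM in cluster 3.

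The highest Dcc level of any cluster was in unnamed cluster 2, led by March1, Slco3a1, Igfbpl1 and Ebf1, in which markers of Purkinje cells (5 of 13) and of interneurons (6 of 8) were both raised. Its Dcc levels were 900.3, 1261 and 1196 CPM in the 3 libraries with at least 20 of its cells, and Dcc was among its leading genes. Epha3 was 375.2, 479.7 and 557.0 CPM there. Of the interneuron-like clusters, cluster 1, led by Robo3, and cluster 0, led by Igfbp5 and Sez6, differed in 4 of 30 members (13.3%, against 5.86% of all genes). Dcc, Epha3, Sema4b and Nrp1 were higher in cluster 1, Dcc at 507.6, 521.9, 811.3 and 763.4 CPM against 203.4, 252.8, 264.5 and 339.0 CPM. Unc5c had its highest mean, 808.5 CPM, in cluster 0, with 803.0, 609.4, 1004 and 817.6 CPM, but overlapped the 334.6 to 786.2 CPM of cluster 1. The 3 pairs of clusters were chosen after the clusters had been seen.

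**Figure D3:**
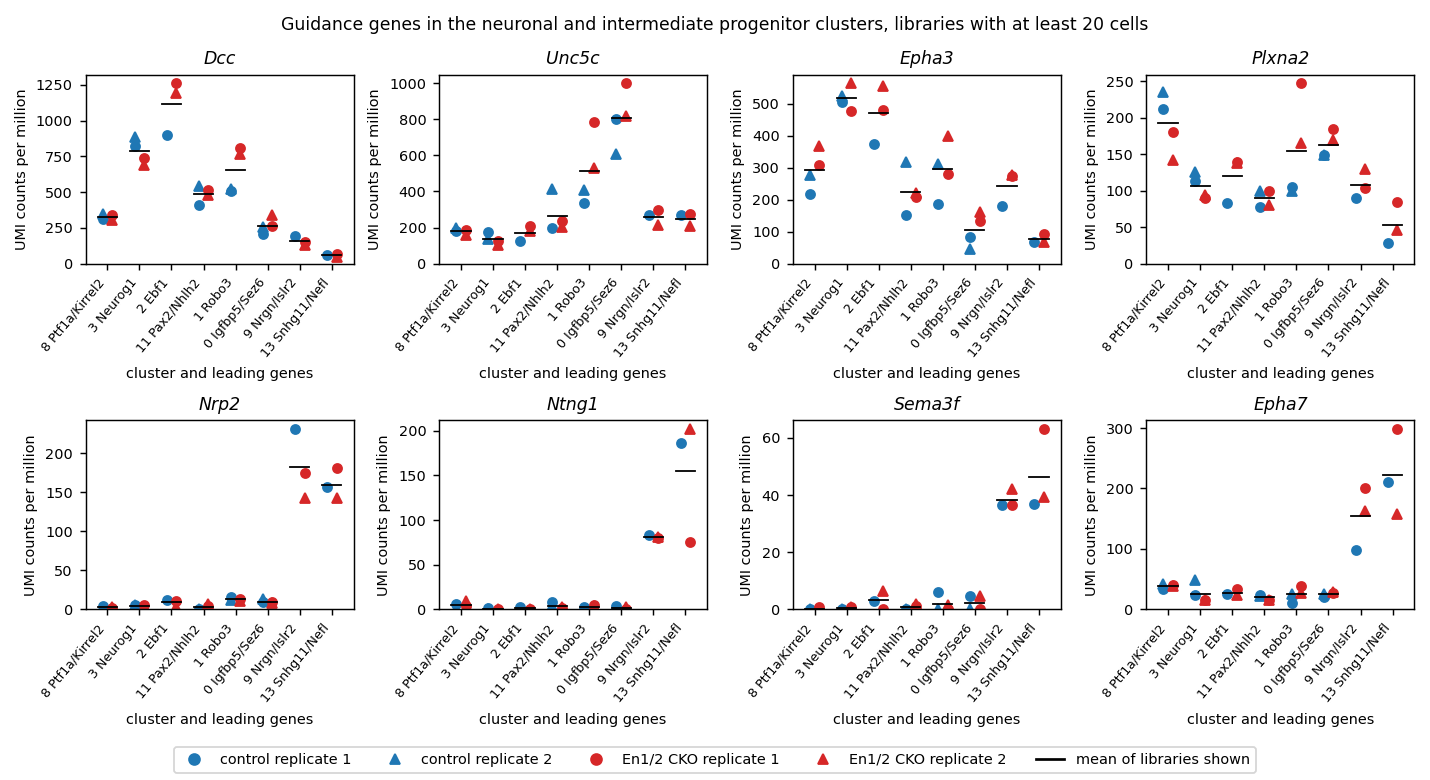
Level in CPM (linear axis from 0) of 8 guidance genes in 8 clusters, each named by its number and leading genes, with a point for every library that holds at least 20 cells of the cluster and a line at their mean. Dcc is highest in clusters 2 and 3, Unc5c in cluster 0, and Nrp2, Ntng1, Sema3f and Epha7 are high in the Purkinje-like clusters 9 and 13.

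The libraries labelled En1/2 CKO were compared with control in all cells and in 3 classes, with edgeR's quasi-likelihood test and Benjamini-Hochberg adjustment over all genes tested, at a threshold of 0.05. No member passed in any of the 4 comparisons: 0 of 59 in all cells, 0 of 41 in Purkinje-like cells, and 0 of 43 in both the interneuron-like and the progenitor-like class. Of all genes, 0%, 0.0223%, 0% and 0% passed in these comparisons. The members with an unadjusted p under 0.05 numbered 0, 3, 5 and 3, which is 0%, 7.32%, 11.6% and 6.98% of those tested against 4.61%, 3.19%, 4.8% and 5.67% of all genes, and DESeq2 called 0 in each. In data simulated with the same libraries, edgeR called 12.1% to 14.4% of genes changed 2-fold and 69.7% to 88.8% of genes changed 4-fold. Changes near 2-fold were therefore mostly not detectable here. En2, a gene the mutants should lose, also stayed short of the threshold in each of the 4 comparisons. Its levels summed over all cells, given above, were nevertheless lower in both mutants than in both controls. The simulated rates may thus be too high for these libraries. The members' median log2 fold changes were -0.15, -0.14, -0.25 and -0.22, beside -0.06, 0.01, -0.04 and -0.04 over all genes.

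These counts of 0 rested on the spread between the controls. Without control 1 edgeR called 2 members in all cells, and 5, 3 and 2 in the Purkinje-like, interneuron-like and progenitor-like classes. Without control 2 it called 19, 1, 18 and 10, with the remaining control assumed to vary like the mutants. The same fits called 7.48%, 2.84%, 7.11% and 8.87% of all genes without control 1, against 3.28%, 12.2%, 6.67% and 4.08% of members. Without control 2 they called 17.0%, 2.25%, 21% and 16.1% of all genes, against 31.1%, 2.44%, 36.0% and 20% of members. The coefficient of variation between libraries was 0.299 to 0.365 for controls and 0.0799 to 0.128 for mutants, so such fits assume a smaller spread than the controls showed. Members whose genotypes did not overlap numbered 11 of 37 in Purkinje-like cells (29.7%, against 30.7% of all genes), 8 of 26 in interneuron-like cells (30.8%, against 34.7%) and 10 of 30 in progenitor-like cells (33.3%, against 37.3%). The shares among members were close to those among all genes.

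In all cells, the member with the smallest p was Unc5c, at 284.3, 223.2, 199.7 and 154.8 CPM, a log2 fold change of -0.58 (SE 0.24, edgeR adjusted p = 0.955). Among members with a mean of 20 CPM or more in a genotype, Dcc, Epha5, Plxnc1, Nrp2 and Plxna3 followed. Their log2 fold changes lay between -0.36 and -0.59, all lower in mutants and none past the threshold. Some members under 20 CPM had a smaller p than Dcc and did not pass either. Of these Epha8 was lower in mutants (-1.05, SE 0.47), while Epha2 (1.55, SE 0.73), Sema3c (0.71, SE 0.40) and Unc5a (0.76, SE 0.43) were higher. Efna2 and Efna5 had log2 fold changes of -0.14 (SE 0.24) and -0.26 (SE 0.23) in all cells. In the sums over all cells, fewer cells of a class and less RNA per cell cannot be told apart.

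In Purkinje-like cells the smallest p belonged to Sema3a, whose levels given above were lower in both mutants than in both controls, with a log2 fold change of -1.91 (SE 0.46, edgeR adjusted p = 0.458). The control 2 value of Sema3a rested on 5 UMIs and the mutant values on 13 and 9. Sema3a lies on mouse chromosome 5, as En2 does, and only mutants carried the floxed En2 allele, so DNA inherited together with that allele and the loss of En2 cannot be told apart. Epha5, Ephb4, Sema3c, Sema3d and Sema3e also lie on chromosome 5, and Epha4, Nrp2, Plxna2 and Sema4c lie on chromosome 1 with En1. Their distances from the floxed gene differ. On chromosome 5 En2 lies from base 28165694, Sema3a from 13125414, Epha5 from 84054761 and Ephb4 from 137350109. On chromosome 1 En1 lies from base 120602418, Epha4 from 77367185, Sema4c from 36548639 and Plxna2 from 194618218. How much DNA came with either floxed allele was not tested. Epha6, at 5.98, 0, 27.4 and 12.7 CPM, and Ephb6, at 23.9, 0, 53.6 and 38.1 CPM, had log2 fold changes of 1.82 (SE 0.73) and 1.07 (SE 0.47), with control 2 at no UMI for both. Leaving out a library moved these values between 1.16 and 6.54 for Epha6 and between 0.91 and 7.71 for Ephb6, the highest where only control 2 was left as control. Epha3 and Epha4 had log2 fold changes of 0.74 (SE 0.39) and -0.85 (SE 0.45). Efna2 was 69.5, 13.9, 48.8 and 49.5 CPM (log2 fold change -0.32, SE 0.40) and Efna5 was 27.7, 13.9, 45.3 and 31.7 CPM (0.55, SE 0.43).

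In interneuron-like cells Ephb1 had the smallest p. Its levels of 44.4, 41.6, 13.7 and 19.3 CPM were lower in both mutants than in both controls, with a log2 fold change of -1.41 (SE 0.27, edgeR adjusted p = 0.963). It passed when genes with low counts were kept in the test and when either control was left out, and without the Pax2-led interneuron cluster the log2 fold change was -0.92. The Pax2-led cluster 11 made up 2.75% of the interneuron-like cells of control 1, 47.8% of control 2, and 39.7% and 26.9% of those of the mutants. In that cluster Ephb1 was 20.4, 40.7, 11.3 and 11.4 CPM, in cluster 0 it was 51.1, 58.4, 11.1 and 36.1 CPM, and in cluster 1 the genotypes overlapped at 38.8, 12.4, 29.6 and 23.7 CPM. Ephb6 was higher in both mutants (log2 fold change 0.97, SE 0.35), and Plxna1, Sema4g and Sema6a had log2 fold changes of -0.88, -0.44 and -0.37, none past the threshold. Efna2 and Efna5 had log2 fold changes of 0.04 (SE 0.23) and 0.09 (SE 0.27).

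The progenitor-like class pools radial and Ptf1a intermediate progenitor-like cells, and its makeup differed between genotypes. Radial cells made up 21.3% and 32.7% of it in controls and 42.2% and 43.4% in mutants. The smallest p in the pooled class belonged to Sema3c, which stayed under 20 CPM, with a log2 fold change of -3.08 (SE 0.64, edgeR adjusted p = 0.799). In the pooled class Plxnc1 was 29.96, 23.0, 16.0 and 16.0 CPM, a log2 fold change of -0.81 (SE 0.26, edgeR adjusted p = 0.799). Dcc, with the levels given above, was lower in both mutants (-0.47, SE 0.21), and so was Plxna2, at 126.7, 127.2, 101.4 and 85.1 CPM (-0.48, SE 0.22). Sema6d (32.7, 28.3, 41.6 and 49.5 CPM, 0.52, SE 0.25) and Sema3a (10.9, 17.7, 20.5 and 21.3 CPM, 0.68, SE 0.34) were higher in both mutants, and Plxna3 had a log2 fold change of -0.68 (SE 0.37). None of these passed the threshold. Within Ptf1a intermediate progenitor-like cells Dcc, at the levels given above, and Plxna2, at 157.1, 178.4, 139.9 and 115.0 CPM, were also lower in both mutants. Radial progenitor-like cells had 35.1, 47.0, 45.3 and 48.7 CPM of Sema3a and Ptf1a intermediate cells 1.87, 0, 2.67 and 0.963 CPM, and the genotypes overlapped in both. Sema6d overlapped likewise, at 85.1, 56.4, 74.7 and 102.5 CPM in radial and 13.1, 11.3, 17.9 and 10.1 CPM in Ptf1a intermediate cells. Efna2 and Efna5 had log2 fold changes of -0.11 (SE 0.25) and -0.29 (SE 0.25).

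**Figure D4:**
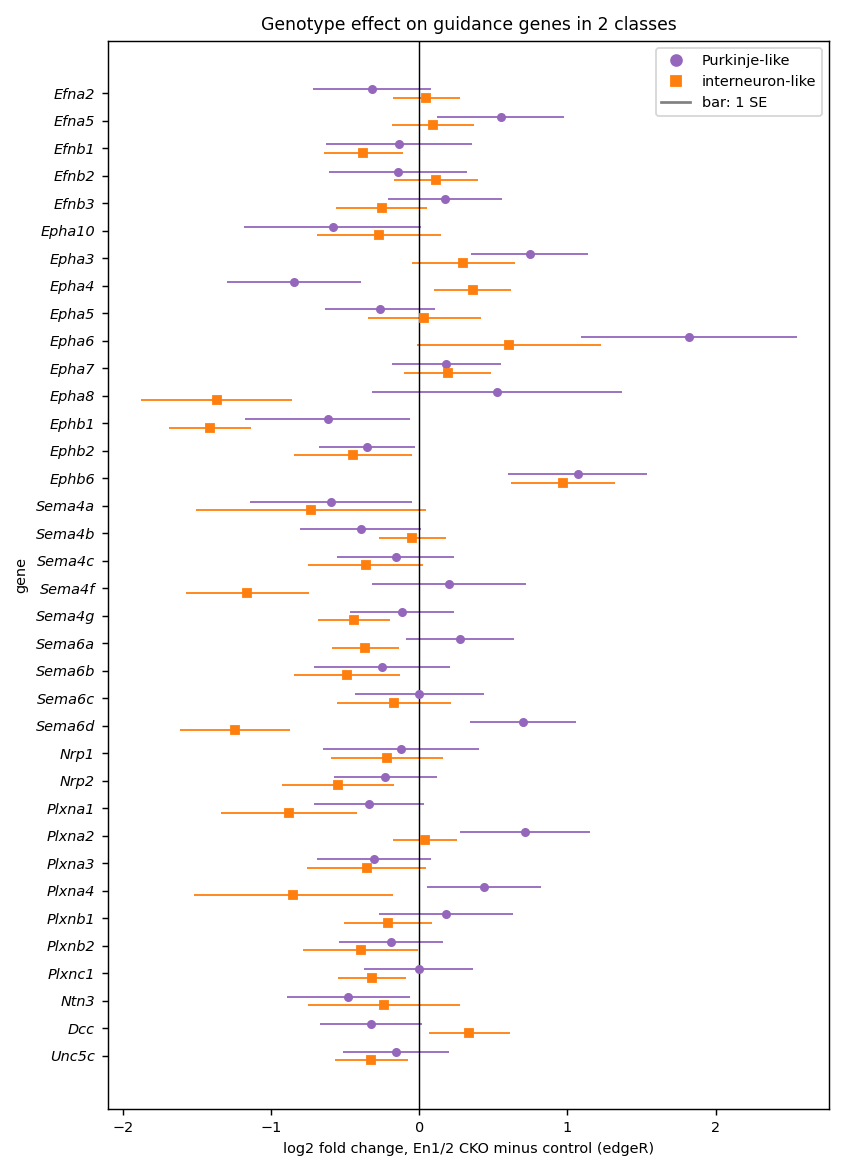
Log2 fold change between En1/2 CKO and control from edgeR (x axis) for the 36 guidance genes tested in both Purkinje-like cells (circles) and interneuron-like cells (squares), with bars of 1 SE. Many of the bars include 0 and many do not, and a bar of 1 SE is not a test. Sema6d lies above 0 in Purkinje-like cells (0.70) and below 0 in interneuron-like cells (-1.25).

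The genotype effect itself was then compared between Purkinje-like and interneuron-like cells of the same libraries. An unadjusted edgeR p under 0.05 was found for 12 of 46 members (26.1%, against 7.88% of all genes). The difference was above 0 for 36 of the 46 (78.3%, against 55.3%), with a median of 0.35 against 0.06 over all genes. The members were not tested as a set. Sema6d was the only 1 of 46 members that passed, beside 0.823% of all genes. Its 51.6 and 41.7 CPM in Purkinje-like cells of controls compared with 91.7 and 71.1 CPM in mutants, a log2 fold change of 0.70 (SE 0.36). In interneuron-like cells the 18.9 and 33.7 CPM of controls compared with 10.0 and 9.33 CPM in mutants, a log2 fold change of -1.25 (SE 0.37). Neither effect passed alone, and the difference between them was 1.78 (SE 0.40, edgeR adjusted p = 0.00228). The genotypes did not overlap in either class, as for 30.7% and 34.7% of all genes, and the effects had opposite signs. En2, which is not a member, also passed in this comparison. Its log2 fold change was -0.78 (SE 0.415) in Purkinje-like and -2.005 (SE 0.28) in interneuron-like cells. Neither of these En2 effects passed alone, although -2.005 is about the size of the simulated 4-fold changes. The difference for En2 was 1.21 (SE 0.29, edgeR adjusted p = 0.00873), and DESeq2 did not call it. The part of En2 in the Sema6d difference was not tested.

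The Sema6d difference was lost in several other analyses. DESeq2 gave 1.98 with an adjusted p of 1.00, a stricter limit on both genes (1000) and mitochondrial UMIs (5%) gave 1.09 (adjusted p = 1.00), and leaving out En1/2 CKO 1 or En1/2 CKO 2 gave 1.69 and 1.95 (adjusted p = 1.00 and 0.455), while leaving out control 1 moved it to 3.01. The Sema6d values in Purkinje-like cells stand on 69, 3, 77 and 56 UMIs and those in interneuron-like cells on 80, 17, 33 and 27. Within the interneuron-like clusters Sema6d was 12.2, 22.2, 10.4 and 8.997 CPM in cluster 11 and 20.3, 24.9, 6.84 and 13.5 CPM in cluster 1. In cluster 0 it was 18.6, 58.4, 11.1 and 6.28 CPM. Both controls lay above both mutants in each, but some of these values rest on few UMIs. A count of 3 UMIs stood for 12.2 CPM in cluster 11 of control 1 and for 37.3 CPM in cluster 1 of control 2.

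Some single markers of other classes were ordered by genotype in interneuron-like cells. Genotypes did not overlap for 34.7% of all genes at 20 CPM or more in that class. The 13 Purkinje markers summed to 1773, 2800, 2076 and 1871 CPM there, with no order by genotype. Among them Foxp2 (157.6, 132.7, 117.6 and 106.0 CPM) and Car8 (6.85, 3.96, 1.22 and 3.11 CPM) were higher in both controls, 3 others were lower in both, and none was at 0 in every library. Calb1 (3.78, 0, 0.911 and 2.07 CPM) and Skor2 (0.945, 0, 1.22 and 1.38 CPM) were near 0. The 14 radial progenitor markers summed to 2533, 1479, 1463 and 2318 CPM, also with no order by genotype, and 3 were higher in both controls. In Purkinje-like cells, where Sema6d was higher and Sema3a lower in both mutants, some marker sums were ordered by genotype and others were not. Genotypes did not overlap there for 30.7% of all genes at 20 CPM or more. The 8 interneuron markers summed to 1083, 514.7, 1067 and 809.9 CPM, without order, 1 of them higher and 3 lower in both controls. The 13 Purkinje markers summed to 4873, 8319, 3819 and 3995 CPM there, 2 of them higher in both controls. Ebf1, at 2673, 2490, 1398 and 1412 CPM, was 1 of these 2. The 10 Ptf1a intermediate progenitor markers summed to 317.7, 459.1, 202.5 and 245.0 CPM and the 14 radial progenitor markers to 2201, 2560, 1233 and 2153 CPM, with 4 and 2 higher in both controls. The 6 cycling markers summed to 106.9, 389.5, 44.1 and 82.5 CPM, with 4 higher in both controls. The part of these markers in the Sema6d and Sema3a values was not tested.

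The next members by p in this comparison did not pass. The difference was 1.38 for Plxna4 (SE 0.45, edgeR adjusted p = 0.122), -0.84 for Dcc (SE 0.27, edgeR adjusted p = 0.151) and -2.13 for Sema3a (SE 0.85, edgeR adjusted p = 0.343). Leaving out a library moved the Dcc difference between -1.05 and -0.16, and it passed without control 2. For Dcc the interneuron-like levels were higher in both mutants and the Purkinje-like ranges overlapped.

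Other genes of these pathways were read out of the same fits. Of 25 co-receptors and partners and 47 cytoplasmic effectors listed, those tested in all cells, Purkinje-like, interneuron-like and progenitor-like samples in turn numbered 25, 19, 20 and 22 partners and 47, 36, 39 and 41 effectors. None of these passed edgeR's test. An unadjusted p under 0.05 was found for 2, 0, 6 and 1 partners and for 1, 2, 1 and 2 effectors, beside the shares of all genes at that p given above. In the comparison of effects between Purkinje-like and interneuron-like cells 2 of 21 partners and 0 of 40 effectors passed, beside 0.823% of all genes. An unadjusted edgeR p under 0.05 was found there for 9 partners and 5 effectors, beside 7.88% of all genes. Robo2, a Slit receptor, was 249.7, 320.0, 258.5 and 223.4 CPM in Purkinje-like and 38.0, 19.8, 12.8 and 7.25 CPM in interneuron-like cells, with a difference of 1.73 (SE 0.31, edgeR adjusted p = 9.79e-06). Chl1, a cell adhesion partner of neuropilins, was 284.0, 139.1, 315.7 and 383.4 CPM in Purkinje-like and 56.2, 85.2, 33.1 and 33.2 CPM in interneuron-like cells (difference 1.35, SE 0.26, edgeR adjusted p = 0.000145). Like Sema6d, both had higher levels in Purkinje-like cells and were lower in mutants among interneuron-like cells, and neither passed with DESeq2 (adjusted p = 1.00).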

How the data were processed

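The files hold whole-number UMI counts for every gene in every barcode, which the authors deposited without normalisation. They came from Cell Ranger 6.1.0 and build mm10, per the submitters' processing notes, from 10x Genomics 3′ v3.1 libraries, per the labels' protocols. Whether intron reads were counted is not given in the sources used here.

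Barcodes were required to have 500 or more genes and no more than 10% of UMIs from mitochondrial genes. The highest Scrublet scores were removed in every library at a rate of 0.8% per 1000 barcodes, because the automatic threshold marked 0 to 6 cells. Clustering (scanpy 1.11.5) used log values at 10000 UMIs a cell, 2000 variable genes, 30 principal components, 15 neighbours and the Leiden method at resolution 1. Guidance genes, En1, En2, TdTom and sex-linked, mitochondrial, ribosomal or globin genes took no part in it. A cluster took a marker list's name when at least 3 of its markers, 1 of the first 3 included, were raised 1.5-fold (10 CPM added) and no other list led it. This naming rule was chosen with the clusters in view, and the classes are rebuilt here. Members and lists were chosen with earlier results of these data known.

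UMI counts were summed per library and class. Genotypes were compared with edgeR 4.0.16 (TMM, filterByExpr, quasi-likelihood F test, 2-sided), without a block, and the effects in the Purkinje-like and interneuron-like classes were compared by an interaction term, blocked by library. SEs came from the fitted information matrix and the moderated dispersion. The fits were tested on simulated data, where the interaction called 28.0% of 2-fold and 71.7% of 4-fold differences. Classes were compared only by whether all 4 libraries of 1 lay above those of another, for genes with a class mean of 20 CPM or more. A floor is 3 counts and covers counting error only. Members named with values were, by rule, up to 4 per class by the ratio to the next class, up to 6 per genotype comparison and 4 for the interaction by p, Efna2 and Efna5, and every netrin, netrin receptor, netrin-G and neuropilin. Members ranked by p had a mean of 20 CPM or more in a genotype of the class. Other members were named after their values were seen. The alternatives were RLE size factors, DESeq2 1.42.0, low-count genes kept, doublets kept, a stricter limit on cells (1000 genes and 5% mitochondrial UMIs), Leiden resolution 2, a limit of 50 CPM, the replicate number as a block and each library left out. A crossed pairing and interneuron-like cells without the Pax2-led cluster were added after seeing the data.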

Additional observations from a re-analysis of the deposited data

Results flagged for a closer look

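The genotype effect on Sema6d, a transmembrane semaphorin, differed between 2 cell classes. It was 0.70 on the log2 scale in Purkinje-like cells and -1.25 in interneuron-like cells, and neither effect passed alone. The difference of 1.78 passed edgeR's interaction test but was lost with DESeq2 and with the stricter cell filter. Both mutants lay on the stated side of both controls in each class. Genotypes likewise did not overlap for 30.7% and 34.7% of all genes in these classes. The interaction test compared 46 members between Purkinje-like and interneuron-like cells, and no other member passed. An unadjusted edgeR p under 0.05 was found for 26.1% of these members, against 7.88% of all genes.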

How the results depend on the processing

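The counts of members past the threshold depended on the controls. Leaving out 1 library in turn gave 0 to 19 members in all cells, 0 to 5, 0 to 18 and 0 to 10 in the Purkinje-like, interneuron-like and progenitor-like classes, and 0 to 4 for the difference of effects. Of all genes the same fits called up to 17.0%, 2.84%, 21%, 16.1% and 1.64%. Keeping low-count genes gave 1 in interneuron-like cells (Ephb1). For the difference of effects DESeq2 and the stricter cell filter gave 0 and Leiden resolution 2 gave 2. With the replicate block 0 members passed in each of the 4 genotype comparisons. The correlation of same-numbered libraries was 0.0413 in all cells, 0.052 in Purkinje-like, -0.199 in interneuron-like cells and -0.249 in the progenitor-like class, so the numbers were not taken to pair them. A crossed pairing, chosen after seeing the data, called 0 members in interneuron-like and progenitor-like cells, and 14 and 0 of all genes. No paired fit was made for the difference of effects because the library was already its block.

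Members apart between Purkinje-like and interneuron-like cells stayed within 1.5 times of the 15 under every alternative run (leaving out a library gave 16 to 20). Those of 1 class above all others fell to 5 with the stricter cell filter, which left 6 Purkinje-like cells in control 2, and were 16 to 22 with a library left out. Of 36 named genotype effects under 407 alternatives, 23 changed sign, 24 gained and 4 lost a call, the 4 being those of Sema6d given above. With the stricter cell filter the log2 fold change became 0.17 for Efna5 in all cells, -0.20 for Epha3 in Purkinje-like cells, and in progenitor-like cells 0.11 for Plxna2, 0.24 for Dcc, -0.033 for Sema3a, 0.18 for Efna2 and 0.092 for Efna5. Without the Pax2-led cluster, interneuron-like values became 0.041 for Sema4g, 0.048 for Sema6a, -0.31 for Efna2 and -0.42 for Efna5, and at Leiden resolution 2 Efna2 became -0.13. Leaving out a library turned the sign of Nrp2 (-0.88 to 0.079), Plxna3 (-1.07 to 0.26) and Efna2 (-0.34 to 0.11) in all cells, Epha4 (-1.57 to 0.045) and Efna2 (-0.51 to 1.88) in Purkinje-like, Plxna1 (-1.26 to 0.60) and Efna5 (-0.24 to 0.27) in interneuron-like and, for the progenitor-like class, Plxna3 (-1.003 to 0.11) and Efna2 (-0.29 to 0.23), and of Plxna4 in the difference of effects (-3.78 to 1.88). The causes were not tested.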

Other observations

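Choroid plexus-like cells were found only in the mutant libraries, 68 in En1/2 CKO 1 and 21 in En1/2 CKO 2, so they give no genotype comparison. Of the guidance genes, Plxnb2 was 246.8 and 281.5 CPM in them, and Sema3b, a secreted semaphorin low in all neuronal classes, was 69.3 and 72.5 CPM. Sema3c was 37.4 and 81.0 CPM, Sema3f 55.5 and 29.9 CPM, and Nrp2 54.1 and 59.7 CPM.

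A small unnamed cluster of 86 cells, with Vtn, Col3a1 and Rgs5 among its leading genes, had Nrp1 at 75.2, 85.9, 115.7 and 154.4 CPM from 3, 1, 9 and 10 UMIs. Efnb1 was 125.3, 0, 180.1 and 169.8 CPM in it, from 5, 0, 14 and 11 UMIs, and the counts are too few to order the libraries.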
